A study of Mus musculus with 8 samples.

Results

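Genes of the unfolded protein response were followed in sorted mouse hematopoietic stem cells of 2 genotypes. The 10 genes, chosen by symbol as the core of the response, are Hspa5, Hsp90b1, Xbp1, Atf4, Ddit3, Herpud1, Atf6, Ern1, Dnajb9 and Eif2ak3, and all were found among the 52224 genes of the deposited table. The cells came from bone marrow and carried the sort phenotype CD48-negative, CD150-positive, lineage-negative, Sca-1-positive and Kit-positive. There were 4 libraries of the genotype DekCon and 4 of the genotype DekTg, and the comparison asks which of these transcripts differ between the genotypes. Beyond these names the labels give no promoter, allele, strain, age or pooling of animals for either group, and no treatment other than the genotype name.

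The unfolded protein response is the signalling network that matches the folding capacity of the endoplasmic reticulum (ER) to the load of proteins entering it. It is started by sensors in the ER membrane, namely IRE1 (encoded by Ern1), PERK (encoded by Eif2ak3) and ATF6. IRE1 splices Xbp1 mRNA in the cytoplasm, PERK slows translation and thereby favours that of Atf4, and ATF6 is cut in the Golgi to release a transcription factor. Their targets include the chaperones Hspa5 and Hsp90b1, the degradation factors Herpud1 and Dnajb9, and, under lasting stress, Ddit3. Hematopoietic stem cells are known for a low rate of protein synthesis and a low tolerance of misfolded protein. Splicing, cleavage and phosphorylation are not seen in counts per gene, so the values below are transcript levels only.

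The promoter sequences show which of the 10 genes carry the textbook binding elements of this network. RefSeq promoter windows on GRCm38.p6, each of 300 bases from 250 before to 50 after the start, were matched for 9 of the 10 genes, all but Atf6. The ER stress response element (ERSE), bound by NF-Y and ATF6 or XBP1, was searched as CCAAT, any 9 bases, then CCACG, and its shorter form ERSE-II as ATTGG, any 1 base, then CCACG. The composite element of ATF4 and C/EBP factors was searched as TTNCATCA. Both strands were searched, and no hits of different motifs overlapped in these genes. Capitals below mark the fixed letters of each hit.
Hspa5 (chr2:34772005-34772063, plus strand, 1 ERSE from -65 to -47): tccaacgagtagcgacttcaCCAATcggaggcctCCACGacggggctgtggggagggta
Hsp90b1 (chr10:86705513-86705676, minus strand, 1 ERSE from -212 to -194 and 1 in reverse from -107 to -89): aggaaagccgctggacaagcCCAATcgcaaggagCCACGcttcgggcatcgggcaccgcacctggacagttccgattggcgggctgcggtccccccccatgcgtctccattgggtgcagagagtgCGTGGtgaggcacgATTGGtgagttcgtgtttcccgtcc
Herpud1 (chr8:94386297-94386407, plus strand, 1 ATF4 and C/EBP element from -112 to -105 and 1 ERSE-II from -52 to -42): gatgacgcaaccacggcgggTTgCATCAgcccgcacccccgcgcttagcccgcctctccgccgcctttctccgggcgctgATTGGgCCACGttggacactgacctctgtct

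Over all 32851 promoter windows, ERSE was present in 0.119%, ERSE-II in 0.0365% and the ATF4 and C/EBP element in 3.97%. Among 76 genes of a wider pathway list with a promoter entry, 10 held ERSE (13.2%), 2 held ERSE-II (2.63%) and 9 held the ATF4 and C/EBP element (11.8%). No match to these 3 motifs was found in the windows of Dnajb9, Xbp1, Atf4, Ddit3, Ern1 or Eif2ak3. A match describes the letters only and does not show binding in these cells.

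**Figure D1:**
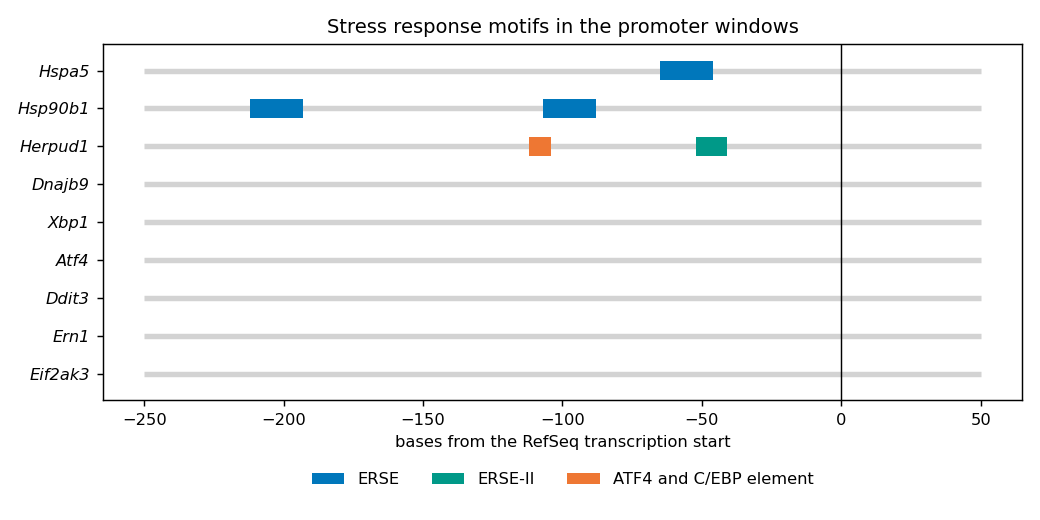
Positions of the 3 motifs (coloured bars) in the promoter windows of 9 genes, in bases from the RefSeq transcription start. Hspa5, Hsp90b1 and Herpud1 hold hits, and the other 6 windows hold none.

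Recovered reads per library ran from 2525884 to 4101132. Mitochondrial genes took 2.69 to 3.34% of the values in DekCon and 3.25 to 3.66% in DekTg (two-sided exact permutation p = 0.0571, adjusted p = 0.229 over 4 library measures), and the part of this share in the values below was not tested. Dek, the gene the genotypes are named for, was listed at 395 to 632 in DekCon and at 1862 to 2710 in DekTg (log2 fold change 2.23, SE 0.16, limma adjusted p = 1.14e-06), but its 4 DekTg values are not whole numbers of reads, so the size of that difference cannot be taken as measured. The deposited values are read counts divided by 1 factor per library, called normalized read counts here. Libraries 1 and 4 of each group resembled each other far more than other libraries did. Their mean chi-square per gene was 1.67 in DekCon and 1.81 in DekTg, where counting noise gives 1, against 5.29 to 15.06 for the other 10 pairs within a group. The labels do not say whether they come from separate mice, so p-values measure the spread between these libraries, which may be technical. DekCon replicate 2 stood apart in the sums of several lists of cell markers. Its 15 plasma and B cell markers other than Xbp1 summed to 634, against 1056 to 1440 in the other DekCon libraries and 4773 to 5601 in DekTg. Its summed count of Cd48, Flt3 and Cd34 was 913, against 1651 to 3361 in the other DekCon libraries and 2919 to 3194 in DekTg. Its 5 megakaryocyte markers summed to 9218, against 2586 to 4737 in the other DekCon libraries and 1968 to 3316 in DekTg. Its 8 T and NK cell markers summed to 999, against 676 to 731 in the other DekCon libraries and 584 to 774 in DekTg. Most of that 999 was Nkg7 alone, at 794 against 385 to 478 in the other DekCon libraries. Cd3e (111) lay within the range of those libraries (98.9 to 132), and Lck (45.9) lay below it (67.8 to 115). Sums of the 11 neutrophil and monocyte markers were high in DekCon replicates 2 and 3 (11440 and 11590, against 4436 and 4503). They were also high in DekTg replicates 2 and 3 (5477 and 17370, against 2627 and 2559). The genes behind these sums differed. Within DekCon, replicate 2 was highest for Mpo (6147), Elane (1730), Ctsg (1344) and Ly6c2 (269). It was lowest for S100a8 (427), S100a9 (150), Camp (39.2), Ltf (148) and Csf1r (41.2). In DekTg replicate 3 the largest values were S100a8 (4181) and Ngp (3468). The 10 erythroid markers summed to 216 and 232 in DekCon replicates 1 and 4 and to 1606 and 1251 in replicates 2 and 3. In DekTg they summed to 634 to 960. Car1 made up most of the sums in DekCon replicates 2 and 3, at 1160 and 946. It was at 54.5 and 61.7 in replicates 1 and 4. Of the 10 markers 3 passed (limma), where 0.0347% of all genes tested did. These were Hba-a1, Hba-a2 and Hbb-bs, all higher in DekTg (log2 fold changes 2.34, 3.57 and 3.14). Klf1 (-0.89) and Epor (-1.06) were lower and did not pass. No marker of any of these lists was at 0 in all libraries. The 10 stem cell and sort markers, Kit and Slamf1 (CD150) among them, were present throughout, with sums of 3158 to 3803 in DekCon and 3076 to 3685 in DekTg. In bulk libraries such as these, fewer cells of a type and less RNA per cell cannot be told apart.

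None of the 10 genes passed the test between genotypes. All 10 were expressed well enough to be tested, with 28 to 1984 recovered reads per gene and library. By limma, 0 of 10 had an adjusted p under 0.05 (range 0.711 to 0.995), where 0.0347% of the 37414 genes tested did (0.0267% higher in DekTg and 0.00802% lower). EdgeR and DESeq2 on the recovered reads likewise called 0 of 10. At an unadjusted p under 0.05 there was 1 of 10, Herpud1, where 6.93% of all genes tested lay under that value. The 95% intervals of the 10 differences lay between -0.76 and 0.60 on the log2 scale. On simulated reads for this comparison (36519 genes), the test recovered 60% of 2-fold changes and all 4-fold changes (100%), with 11 false calls. Changes smaller than 2-fold were not simulated and would be missed more often. The simulated libraries were independent, unlike libraries 1 and 4 of each group, so the shares recovered here may be lower.

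**Figure D2:**
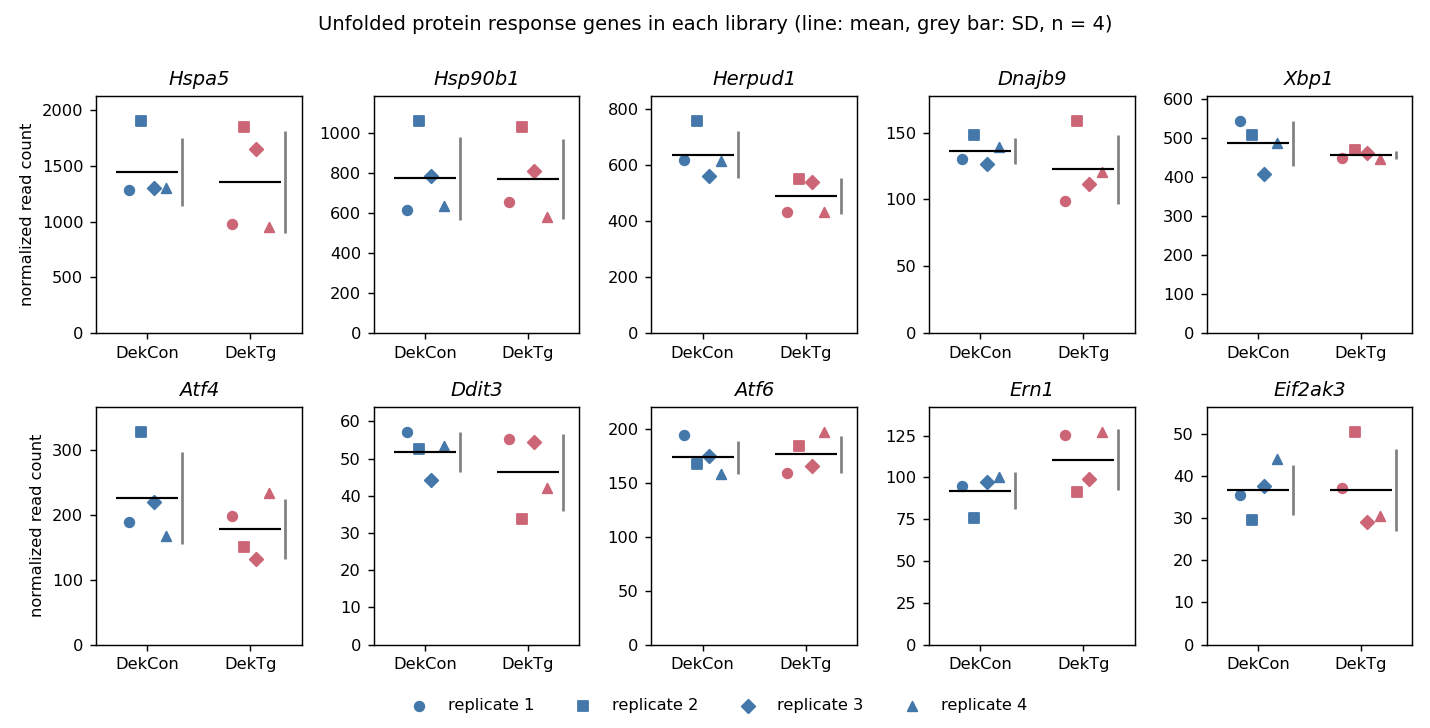
Normalized read count (linear axes from 0) of each of the 10 genes in the 4 DekCon and 4 DekTg libraries, with the mean as a line and the SD as a grey bar (n = 4 per group). The groups overlap for 9 genes, and for Herpud1 the 4 DekTg values, 432 to 553, lie below the 4 DekCon values, 562 to 758.

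Hspa5 encodes BiP, the main Hsp70-type chaperone of the ER and the protein that holds the sensors inactive. It had 1278, 1899, 1298 and 1298 normalized counts in DekCon replicates 1 to 4 and 978, 1846, 1646 and 953 in DekTg replicates 1 to 4. In DekCon, replicates 1, 3 and 4 were nearly equal and replicate 2 stood above them, while DekTg split into a low pair (replicates 1 and 4) and a high pair (replicates 2 and 3). The DekCon mean was 1443 ± 304 and the DekTg mean 1356 ± 458 (SD over 4 libraries), a log2 fold change of -0.13 (SE 0.20, 95% interval -0.56 to 0.29, limma adjusted p = 0.914). The sign is not settled, since the log2 fold change was 0.01 without DekCon replicate 2.

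Hsp90b1 encodes GRP94, the Hsp90-type chaperone of the ER, which folds integrins and Toll-like receptors. It had 614, 1060, 788 and 634 normalized counts in DekCon and 656, 1032, 812 and 580 in DekTg. In both groups replicate 2 was highest and replicate 3 next, and the groups overlapped almost fully. The means were 774 ± 206 and 770 ± 200 (SD, n = 4 each), a log2 fold change of -0.01 (SE 0.19, 95% interval -0.40 to 0.39, limma adjusted p = 0.995).

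Herpud1 encodes a ubiquitin-like ER membrane protein that takes part in ER-associated degradation, the export of misfolded proteins to the proteasome. The gene lies at chr8:94386438-94395377 on the plus strand (GENCODE M21, GRCm38), and its values are given for the gene as a whole. It had 619, 758, 562 and 615 normalized counts in DekCon and 432, 553, 539 and 435 in DekTg. All 4 DekTg libraries were below all 4 DekCon libraries, though the gap between the highest DekTg and the lowest DekCon value was small. The means were 638 ± 84 and 489 ± 65 (SD, n = 4 each), so the DekTg mean was 76.7% of the DekCon mean. The log2 fold change was -0.38 (SE 0.13, 95% interval -0.66 to -0.10), with an unadjusted limma p of 0.0105 and an adjusted p of 0.711, which does not pass. Ranked by p, Herpud1 was number 539 of 37414 genes. Groups did not overlap for 1 of the 10 genes, where this held for 3.97% of all genes tested and, in the lower direction alone, for 1.88%. Leaving out 1 library at a time gave log2 fold changes from -0.44 to -0.30 (the latter without DekCon replicate 2). Averaging libraries 1 and 4 gave -0.34 (limma adjusted p = 0.896, within 0.407 to 0.942 over all 25 alternatives). With all libraries scaled to the same sum it was -0.30, and with quantile normalization -0.23, the smallest difference of the 25. The unadjusted limma p was 0.06 with libraries 1 and 4 averaged and 0.0582 without the limma trend. It was under 0.05 in the other 23 alternatives. Of other cell markers, with the sums given above, 5 of 5 for megakaryocytes and 10 of 11 for neutrophils and monocytes had a log2 fold change below 0, and 7 of 10 for erythroid cells and 7 of 8 for T and NK cells had one above 0. Their part in the Herpud1 difference was not tested.

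Dnajb9 encodes ERdj4, a co-chaperone of BiP that binds misfolded proteins bound for degradation and also restrains IRE1. It had 131, 148, 126 and 139 normalized counts in DekCon and 98.9, 159, 112 and 121 in DekTg. DekCon was narrow and DekTg held both the lowest and the highest of the 8 values. The log2 fold change was -0.17 (SE 0.16, 95% interval -0.50 to 0.16, limma adjusted p = 0.842). It was -0.08 without DekTg replicate 1 and -0.30 without DekTg replicate 2.

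Of the 3 sensors, Ern1 had 95.1, 75.6, 97.1 and 100 normalized counts in DekCon and 125, 91.3, 99.0 and 127 in DekTg. The DekTg libraries 1 and 4 were above every DekCon library, and replicates 2 and 3 were within the DekCon range. Its log2 fold change was 0.26 (SE 0.16, 95% interval -0.09 to 0.60, limma adjusted p = 0.778), and 0.17 without DekCon replicate 2. It was the gene of the 10 with the highest value of this measure.

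Eif2ak3 was the lowest of the 10 genes, with 35.5, 29.7, 37.7 and 44.0 normalized counts in DekCon and 37.1, 50.5, 29.1 and 30.5 in DekTg. Its groups overlapped across nearly the whole range (log2 fold change -0.02, SE 0.22, 95% interval -0.49 to 0.46, limma adjusted p = 0.991). Atf6 was the steadiest of the sensors, with 195, 168, 175 and 159 in DekCon and 160, 185, 166 and 197 in DekTg (log2 fold change 0.02, SE 0.13, 95% interval -0.26 to 0.30, limma adjusted p = 0.983). Both groups of Atf6 spanned almost the same values. Exons of Eif2ak3 overlap Gm43292 and those of Hsp90b1 overlap 1810014B01Rik on the other strand, and the strand setting of the counting is not given, so reads of these pairs cannot be told apart.

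Xbp1 encodes the transcription factor activated by IRE1 splicing and is needed for antibody secretion by plasma cells. It had 544, 507, 407 and 488 normalized counts in DekCon and 448, 470, 462 and 446 in DekTg. The 4 DekTg values were close to each other and all lay within the DekCon range (log2 fold change -0.08, SE 0.12, 95% interval -0.34 to 0.17, limma adjusted p = 0.908). Without DekCon replicate 1 it was -0.03 and without DekCon replicate 3 it was -0.17. Over the same libraries the 15 other markers of plasma and B cells summed to 634 to 1440 in DekCon and 4773 to 5601 in DekTg, and 14 of 15 had a log2 fold change above 0. Igkc and Jchain passed, both higher in DekTg, 2 of the 15 where 0.0347% of all genes tested did. No marker was at 0 in all libraries. Most of the DekTg sums came from Ighm (2535 to 3636) and Igkc (1134 to 2004). Besides Ighm, Igkc and Jchain, log2 fold changes ran from -0.37 (Tnfrsf17) to 0.89 (Pax5), with Irf4 at 0.04 and Cd79b at 0.03. Mzb1, an ER protein of antibody-secreting cells, was at 0.97 to 13.2 in DekTg and 3.83 to 6.34 in DekCon. Whether plasma or B cells were more frequent in DekTg, and their part in the Xbp1 values, was not tested.

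Atf4 encodes the transcription factor of amino acid supply and the integrated stress response. It had 189, 327, 221 and 168 normalized counts in DekCon and 199, 150, 132 and 233 in DekTg. DekCon replicate 2 was the highest library and DekTg replicates 2 and 3 were the lowest, while DekTg replicates 1 and 4 lay within the DekCon range. The log2 fold change was -0.33 (SE 0.21, 95% interval -0.76 to 0.11, limma adjusted p = 0.777), and without DekCon replicate 2 it was -0.13. It was -0.47 without DekTg replicate 4 (limma unadjusted p = 0.0408) and -0.53 with libraries 1 and 4 averaged (unadjusted p = 0.0403), and no adjusted p over the 25 alternatives was below 0.702. Ddit3 encodes CHOP, a target of ATF4 that promotes cell death under lasting ER stress. It had 57.0, 52.6, 44.3 and 53.3 in DekCon and 55.2, 33.6, 54.3 and 42.0 in DekTg (log2 fold change -0.18, SE 0.20, 95% interval -0.60 to 0.24, limma adjusted p = 0.865). Without DekTg replicate 2 its log2 fold change was -0.04. DekTg replicates 2 and 4 lay below the DekCon range and replicates 1 and 3 within it.

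**Figure D3:**
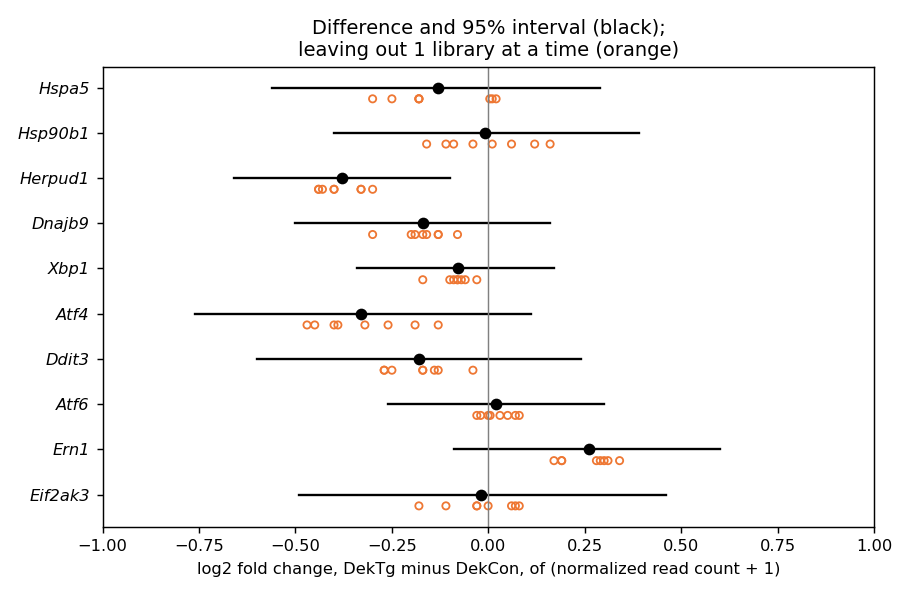
Log2 fold change (DekTg minus DekCon, of normalized read count + 1) of each gene with its 95% limma interval in black, and the 8 values from leaving out 1 library at a time in orange. The interval of Herpud1, -0.66 to -0.10, is the one that lies wholly below 0.

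Direction was shared only loosely. Of the 10 genes, 8 had a log2 fold change below 0 and 2 above (Ern1 and Atf6), with a median of -0.11, but with all libraries scaled to the same sum, or with quantile normalization, 5 were below 0. The median over all genes tested was 0.01. Over 13523 genes with a mean count in the range of the 10, the median was -0.06 and 61.8% were below 0. With the same-sum scaling the median of the 10 was -0.02, and with quantile normalization it was -0.01.

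Levels relative to gene length were compared per kilobase of merged exons. In DekCon the order was Hspa5 (341 ± 72 normalized counts per kilobase, SD, n = 4), Herpud1 (274 ± 36), Hsp90b1 (192 ± 51), Xbp1 (150 ± 18), Atf4 (95.9 ± 30.1), Dnajb9 (53.4 ± 3.8), Ddit3 (30.2 ± 3.1), Atf6 (18.9 ± 1.7), Ern1 (11.3 ± 1.4) and Eif2ak3 (6.09 ± 0.98). The top 4 did not differ from their neighbours in this order beyond 1 SD on each side, and the steps from Xbp1 downwards did. DekTg had the same order, from Hspa5 at 321 ± 108 to Eif2ak3 at 6.10 ± 1.62. There, Atf4 and Dnajb9, and Ddit3 and Atf6, also lay within 1 SD of each other. The means of the 3 sensors were the lowest in both genotypes.

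Hspa5, Hsp90b1 and Atf4 varied widely between libraries of the same genotype. The within-group SD on the log2 scale was 0.40 for Hspa5, 0.36 for Hsp90b1 and 0.40 for Atf4. Each of these was above the SD of over 90% of genes with a mean count within 1.5 times its own (percentiles 92, 91 and 93), while Xbp1 (SD 0.13, percentile 24) and Atf6 (0.13, percentile 16) were steady. DekCon replicate 2 had the highest value of 4 of the 10 genes (Hspa5, Hsp90b1, Herpud1 and Atf4) and the lowest value of Ern1. Hspa5 ran from 953 to 1899 over the 8 libraries, and the libraries with the lowest Hspa5, DekTg replicates 1 and 4, had the highest Ern1. Neutrophil and monocyte markers summed to 2627 and 2559 in those libraries and to 5477 and 17370 in DekTg replicates 2 and 3. Megakaryocyte markers summed to 1968 and 2015 against 3316 and 3206. The part of these cells in the Hspa5 split was not tested.

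**Figure D4:**
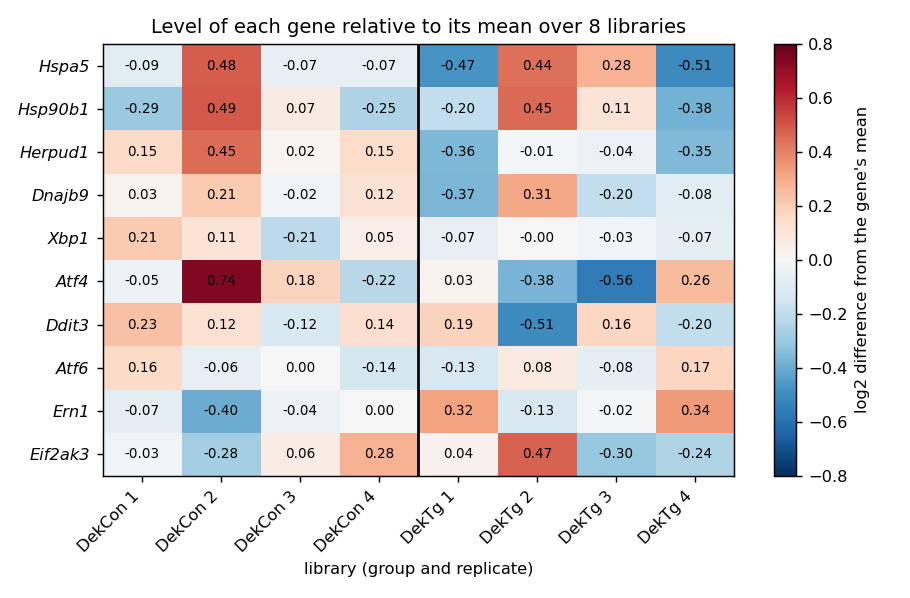
Log2 difference of each gene from its own mean over the 8 libraries, with genes in rows and libraries in columns (DekCon left of the line, DekTg right). Hspa5 and Hsp90b1 are high in DekCon replicate 2 and DekTg replicate 2. Hspa5 is low in DekTg replicates 1 and 4, where Ern1 is high. Hsp90b1 is low in replicates 1 and 4 of both groups (-0.30 and -0.25 in DekCon, -0.20 and -0.38 in DekTg).

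Among 7601 other genes with a mean count of at least 100, the most like Hspa5 over the 8 libraries included Hmgn2, Cenpc1, Vcl and Sacm1l. Likeness was measured as the root-mean-square difference of log2 values after subtracting each gene's mean, which was 0.101, 0.117, 0.122 and 0.127 for these 4. Hsp90b1 came 51st by this measure, at 0.164, and Herpud1 675th, at 0.238.

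Other genes of the pathway were read from a list by role, with 81 genes besides the 10, all of them tested. None of the 81 passed (limma, 0 against 0.0347% of all genes tested), nor did any by edgeR or DESeq2, and 8 had an unadjusted p under 0.05, 7 lower (8.64%) and 1 higher (1.23%). Over all genes tested these shares were 3.78% and 3.15%. Among the 13523 genes with a mean count in the range of the 10, called genes of like level, they were 7.30% and 2.32%. That set is not matched to the 81, of which Ssr1 and Canx lie above the range and Derl3 and Atf5 below it. With the 10 genes included, 9 had an unadjusted p under 0.05, and without DekCon replicate 2 this number was 4. The median log2 fold change of the 81 was -0.12, with 62 below 0 and 19 above. It was -0.05 without DekCon replicate 2 and -0.03 both with libraries scaled to the same sum and with quantile normalization. The share below 0 over all 91 pathway genes was 76.9%, which became 61.5% with libraries scaled to the same sum, 60.4% with quantile normalization and 64.8% without DekCon replicate 2. Among genes of like level the share was 61.8%, 46.0%, 49.4% and 60.6% in these settings.

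By role, 0 of 18 other chaperones and folding enzymes passed, and their median was -0.10. The lowest p belonged to Sdf2l1, a partner of ER co-chaperones (93.0 ± 33.9 against 58.3 ± 11.6 normalized counts, SD; log2 fold change -0.62, limma adjusted p = 0.711), and to Creld2 (95.8 ± 33.2 and 66.7 ± 14.1; -0.49, adjusted p = 0.711). DekCon replicate 2 was the highest library for both, at 142 and 145. Of 17 other genes of degradation 0 passed (median -0.09), with Derl3, a relative of the derlin export channel proteins, at 1.18 (limma adjusted p = 0.719) on mean counts of 2.0 and 4.9. Of 10 other sensors, processing factors and transcription factors 0 passed (median -0.10). Creb3l2, an ER-tethered relative of ATF6, had 115, 133, 140 and 149 in DekCon and 162, 167, 167 and 167 in DekTg, with no overlap and a log2 fold change of 0.30 (adjusted p = 0.711). The adaptor Traf2, which couples IRE1 to stress kinases, was at -0.37 (adjusted p = 0.711).

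Of 20 other genes of the PERK and ATF4 branch 0 passed (median -0.14). Ppp1r15a encodes GADD34, which directs the phosphatase that reverses PERK signalling. It had 185, 179, 178 and 218 normalized counts in DekCon and 150, 129, 116 and 160 in DekTg, so that the groups did not overlap. Its log2 fold change was -0.46 (SE 0.14, unadjusted p = 0.00511, limma adjusted p = 0.707), the smallest p in the pathway list. The stress protein gene Nupr1 was at -0.64 (adjusted p = 0.711), with 155 to 290 in DekCon and 94.8 to 181 in DekTg. Of 16 genes of translocation and vesicle transport 0 passed (median -0.19), with the KDEL receptor Kdelr2 at -0.65 and the translocon subunit Ssr1 at -0.41 (adjusted p = 0.711 for both). Over the 91 genes, groups did not overlap in the lower direction for 3 (3.30%: Herpud1, Ppp1r15a and Nfyc, the last outside the naming rule and chosen after its values were seen) and in the higher direction for 1 (1.10%, Creb3l2), where 1.88% and 2.09% of all genes tested did so, and 3.34% and 1.75% of genes of like level.

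**Figure D5:**
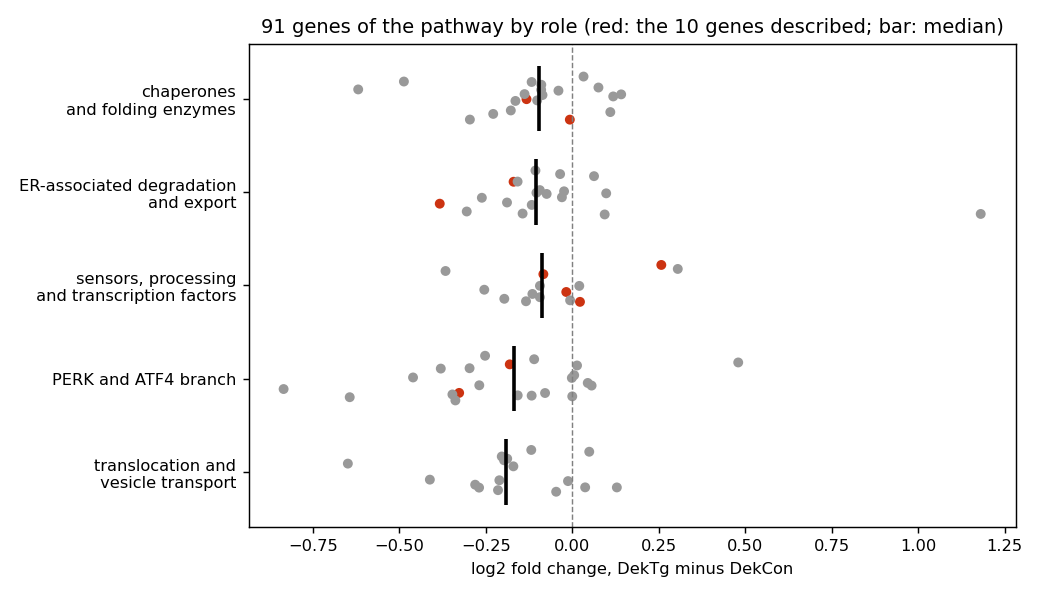
Log2 fold change (DekTg minus DekCon) of 91 pathway genes in 5 roles, with the 10 genes described in red, the others in grey and the median of each role as a bar. The medians lie from -0.19 to -0.09, and none of the 91 genes passed the test.

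Genes were last grouped by promoter element. The 12 pathway genes with ERSE or ERSE-II had a median log2 fold change of -0.13, with 3 above 0 and 9 below, and the 64 with neither element had -0.11. Over all 32 tested genes with ERSE in a promoter the median was 0.00, with 16 above 0 and 16 below, and 0 passed (limma; at an unadjusted p under 0.05, 2 were higher, 6.25%, and 1 lower, 3.12%). Over the 11 with ERSE-II, Herpud1 among them, the median was -0.09, with 9 below 0. Over 658 tested genes with the ATF4 and C/EBP element the median was 0.01, and 0 passed (limma). At an unadjusted p under 0.05, 20 of them were higher (3.04%, against 3.15% of all genes tested) and 26 lower (3.95%, against 3.78%).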

How the data were processed

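RNA was sequenced from 8 libraries after Geo-seq amplification, per the labels' protocols. The submitters' processing notes list build mm10 with HTSeq, DESeq2, Cufflinks 2.1.1 and Bowtie 0.12.9. What each tool did, which annotation was used and whether counting used strand are not stated in these notes or labels. The authors' deposited signal is named FPKM, but 99.99% of 417792 values are whole multiples of 1 step per library (tolerance 0.001 reads), and the reciprocal steps match DESeq2's size factors (largest relative gap 4.4e-05). The other 25 values lie in 6 genes, none of them described here except Dek. The control columns are headed DenCon and were matched to DekCon by group and number. The test planned for FPKM was kept, since it takes any normalized value.

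Genes with a value of at least 1 in at least 4 of 8 libraries were tested with limma 3.58.1 (R 4.3.3) on log2(value + 1), with a mean-variance trend, two-sided, Benjamini-Hochberg adjusted over all genes tested, threshold 0.05. Fold changes on this scale understate those of low genes. Alternatives used edgeR 4.0.16 and DESeq2 1.42.0 on recovered reads, other pseudocounts, filters and scalings, and left-out libraries. Reads without molecular identifiers are not independent molecules. The 10 genes, the lists and the tests were chosen with earlier results of these data known. The text names the 10 genes, Dek, in each role the genes past the threshold or otherwise the 2 of smallest p, and the 5 genes most like Hspa5. Of these, 2 are not reported here. Of 95 pathway symbols, older synonyms included, 91 were in the table. Promoters are from RefSeq (GRCm38.p6), and gene positions and exons from GENCODE M21.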

Additional observations from a re-analysis of the deposited data

Results flagged for a closer look

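Hspa5 in DekCon was flagged because 1 library stood far from the other 3. Replicate 2 had 1899 normalized counts against 1278 to 1298, and the gap to its nearest neighbour was 0.967 of the group's range, above Dixon's 95% critical value for 4 samples. In all, 28 groups of 4 values were examined and 1 was flagged, where chance flags about 1 in 20. The same library had the highest megakaryocyte marker sum (9218), whose part in this value was not tested.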

How the results depend on the processing

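None of the 10 genes and none of the 91 pathway genes passed in any of 25 alternatives. Genes called in all numbered 13, but 4 without the limma trend, 8 without the 6 genes in which some values were not whole reads (added after seeing the data), and 13 to 22 when 1 library was left out (22 without DekTg replicate 2). The median of the 10 genes was -0.11, moved to -0.02 with the same-sum scaling and to -0.01 with quantile normalization, and ranged from -0.17 to -0.05 on leaving out 1 library. Herpud1, Atf4, Ddit3, Dnajb9 and Ern1 kept their sign in all 25 alternatives. Log2 fold changes of changed sign were, with the same-sum scaling, 0.08 for Hsp90b1, 0.0019 for Xbp1 and 0.07 for Eif2ak3. With quantile normalization they were 0.04 for Hspa5, 0.14 for Hsp90b1 and 0.05 for Xbp1, and with libraries 1 and 4 averaged 0.05 for Eif2ak3. Leaving out 1 library gave -0.30 to 0.02 for Hspa5, -0.16 to 0.16 for Hsp90b1, -0.03 to 0.08 for Atf6 and -0.18 to 0.08 for Eif2ak3. These signs changed without DekCon replicate 2 (Hspa5 0.01, Hsp90b1 0.16), DekCon replicate 3 (Hsp90b1 0.01), DekCon replicate 4 (Atf6 -0.02, Eif2ak3 0.07), DekTg replicate 1 (Hspa5 0.0036, Hsp90b1 0.06), DekTg replicate 2 (Atf6 -0.00058), DekTg replicate 3 (Eif2ak3 0.08) and DekTg replicate 4 (Hspa5 0.02, Hsp90b1 0.12, Atf6 -0.03, Eif2ak3 0.06). The cause of these changes was not tested. The labels give same-numbered libraries of the groups only a number in common. Correlations of their deviations from group means ran from 0.009 to 0.157, and 1 of 4 DekCon libraries was closest to its own number. Libraries 1 and 4 were alike in both groups, and what the numbers stand for was not tested. With the replicate number as a block 15 genes were called in all, and 0 of the 10. A term for libraries 1 and 4, added after seeing the data, gave 18 and 0. Depth limits Eif2ak3 and Ddit3 most, with as few as 28 reads in a library.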
